A study of Mus musculus with 6 samples.

Results

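The glucocorticoid receptor gene Nr3c1, the gene of the enzyme that makes its hormone active in tissue (Hsd11b1) and 8 genes that the receptor is known to induce were examined in infarcted mouse hearts. The 10 genes were chosen by symbol and each was found as 1 row among the 52550 gene rows of the table. They were chosen with earlier results of these same hearts known, so their differences between the genotypes are given as a description and are no independent support for anything. The knockout group (KO) was 3 C57BL/6 mice that lack the long noncoding RNA called lncRNA-DRR in the labels (lncRNA-DRR-/-), and the wild-type group (WT) was 3 C57BL/6 mice. In both groups the left anterior descending coronary artery was tied off permanently at 8 weeks of age and the heart was taken 2 weeks later, at 10 weeks, so all 6 hearts were infarcted and no uninjured heart enters any comparison. The labels do not say where the deleted RNA lies, how it was deleted, or whether the mice came from more than 1 founder line.

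Glucocorticoids, corticosterone in mice, cross the cell membrane and bind the receptor, which waits in the cytoplasm in a complex with heat shock protein HSP90 and helper proteins. The bound receptor moves to the nucleus, where pairs of receptors sit on short palindromic DNA elements and raise nearby genes; it also restrains inflammatory genes. In heart muscle the receptor is present in cardiomyocytes and in the other cell types, and the hormone follows a daily rhythm and rises with stress.

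Levels are FPKM, fragments scaled to transcript length and library size, which allow genes of different length to be compared. The approximate depth was 6870000 to 8160000 fragments in KO libraries and 5190000 to 9400000 fragments in WT libraries. Myh6, the main myosin heavy chain gene of adult mouse heart muscle, stood at 1568 to 2329 FPKM in KO and 1865 to 2814 FPKM in WT libraries, as a cardiac label requires. KO replicate 3 had Xist, the RNA of the inactive X chromosome, at 25.6 FPKM and the Y-linked Ddx3y at 0.0280 FPKM. The other 5 libraries had Xist at 0.0742 FPKM or less and Ddx3y at 13.0 FPKM or more. KO replicate 3 therefore reads as female. For the members that passed the test for a difference, the outcome without it is given below. No row was taken as the deleted RNA, and the genotype labels could not be tested against its level. RefSeq lists DRR1 as a synonym of the member gene Fam107a, but the labels do not tie lncRNA-DRR to that gene.

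The sequences that bear most directly on receptor-driven genes are promoter elements, so windows from 250 bases before to 50 bases after each annotated start were searched (RefSeq, GRCm38.p6), and 8 of the 10 genes matched 18 windows. The searched elements, on both strands, were the receptor's strict palindrome (AGAACA, 3 free bases, TGTTCT), a looser form of it (GNACA, 3 free bases, TGTNC), the single arm AGAACA, the clock E-box CACGTG, the cAMP response element TGACGTCA and the clock D-box TTATGTAA. The single arm lies inside the strict palindrome, and so does the loose form, which is 13 bases long against 15. Stretches with a match are shown 5′ to 3′ on the gene's strand, and capitals mark only the 1 element named for each. The Sgk1 stretch holds the strict palindrome, the Fam107a stretch the loose form, the Tsc22d3 stretch a single arm and the Errfi1 stretch the cAMP response element. The Fam107a stretch also holds the single arm from -158 to -153, its first bases, which are not capitalised. Another single arm runs from -110 to -105, and all but its last base lies inside the capitalised loose form.
Sgk1 (chr10:21993661-21993755, plus strand): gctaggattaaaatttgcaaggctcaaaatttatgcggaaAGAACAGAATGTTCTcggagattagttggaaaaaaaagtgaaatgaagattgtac
Fam107a (chr14:8309845-8309937, minus strand): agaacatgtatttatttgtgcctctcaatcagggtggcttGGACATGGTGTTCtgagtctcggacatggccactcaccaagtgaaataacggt
Tsc22d3 (chrX:140600662-140600747, minus strand): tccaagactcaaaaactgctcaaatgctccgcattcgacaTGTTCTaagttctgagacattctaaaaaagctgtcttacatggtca
Errfi1 (chr4:150854979-150855066, plus strand): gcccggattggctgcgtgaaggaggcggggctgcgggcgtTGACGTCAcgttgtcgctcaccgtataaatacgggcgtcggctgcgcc

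The strict palindrome is rare in such windows. It lies from -189 to -175 before the fifth of the 6 annotated Sgk1 starts, and 3 of all 32851 windows (0.00913%) hold it. The loose form was found in 156 windows (0.475%), among them that Sgk1 window and a pair of overlapping Fam107a windows, in which it covers the same bases, from -118 to -106 before the second annotated Fam107a start. The single arm is common, with 6233 windows (19.0%), and 6 of the 18 windows of the members hold it, those of Tsc22d3, Sgk1 and Fam107a. The overlapping Fam107a windows hold the same single arms. By gene, 3 of the 8 members with a window hold it, against 21.3% of all genes with a window. The E-box was found in 7.15% of all windows and in windows of Fkbp5 and Sgk1, the cAMP response element in 1.79% of all windows and in a window of Errfi1, and the D-box in 0.938% of all windows and in none of the 18. The windows of Klf9, Depp1 and Hsd11b1 held none of the 6 searched elements, and Nr3c1 and Zbtb16 had no window. A match describes letters in these windows; receptor elements of many genes lie outside them, and nothing here shows binding.

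The receptor itself did not pass the test for a difference, its activating enzyme stood lower in every KO library, and the induced genes split. Tsc22d3, Depp1, Fam107a, Errfi1, Sgk1 and Klf9 rose in KO hearts, with ratios of mean FPKM from 1.95 for Klf9 to 5.14 for Tsc22d3. Fkbp5, among the most used markers of receptor activity, had a ratio of 1.53 and was not called, and Zbtb16 stood lower, with a ratio of 0.556. Of the 10 genes, 6 were called, all of them higher in KO, in the fit that called 55 of 14656 tested genes (0.375%), of which 40 (0.273%) rose and 15 (0.102%) fell. Calls were made with limma at an adjusted p under 0.05 (Benjamini-Hochberg, all tested genes). In 9 of the 10 genes, all but Nr3c1, the genotypes did not overlap, against 12.8% of all tested genes, and in 7 every KO value was above every WT value, against 5.29%. All 10 passed the filter on low values. The members were chosen partly for this contrast, so nothing is read from these shares.

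**Figure D1:**
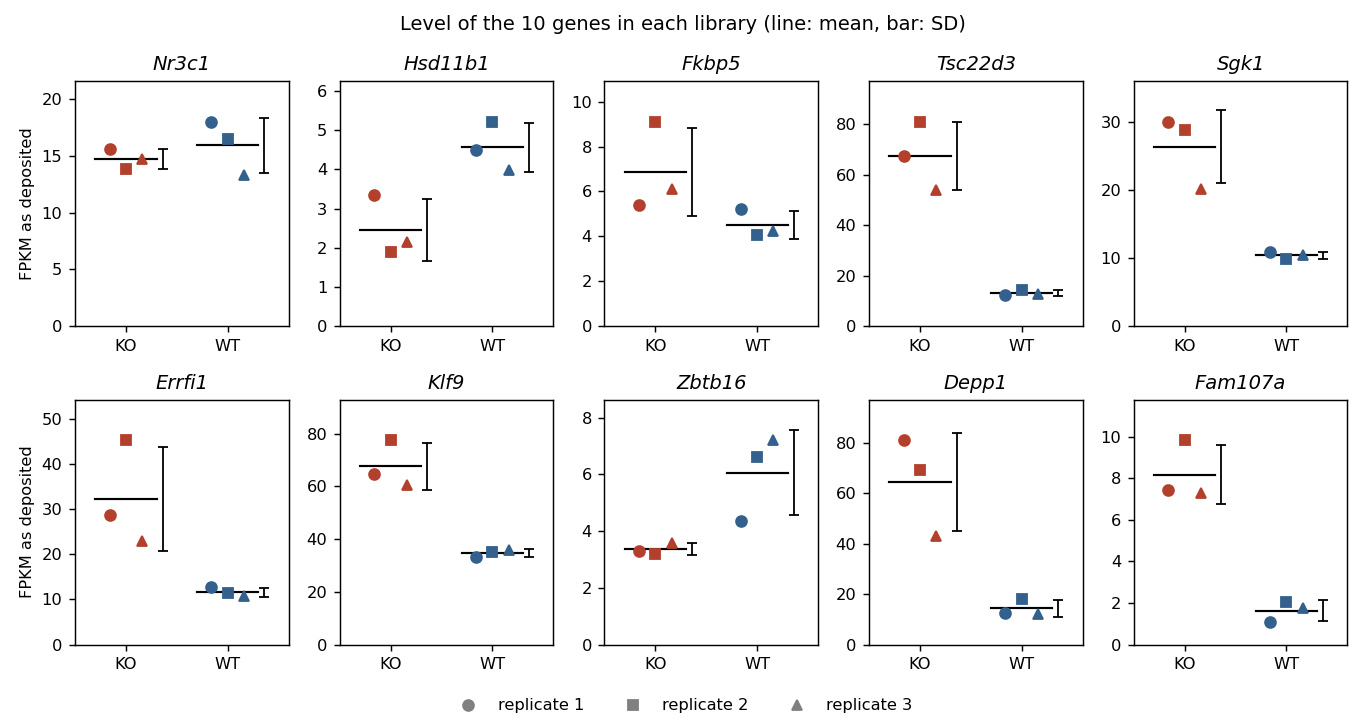
Each panel plots 1 gene's FPKM (vertical axis, from 0) in the 3 KO and the 3 WT libraries, with the group mean as a line, the SD as a bar and the replicate number as the marker shape. Tsc22d3 lies between 53.9 and 80.9 FPKM in KO libraries and between 12.3 and 14.3 FPKM in WT libraries, while the Nr3c1 values of the genotypes overlap.

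Nr3c1, which encodes the receptor, stood at 15.7, 13.9 and 14.7 FPKM in KO replicates 1 to 3 and at 18.01, 16.5 and 13.3 FPKM in WT replicates 1 to 3. WT replicate 3 was the lowest of all 6 libraries, so the genotypes overlapped. The log2 difference (KO minus WT, on the scale of log2(scaled FPKM + 0.5), with its SE, n = 3 per group) was -0.09 ± 0.13, with a 95% interval from -0.40 to 0.23 (limma adjusted p = 0.913). Within that interval the receptor's RNA could be lower or higher in KO hearts. The gene lies on chromosome 18 (39410545 to 39519421, minus strand, GRCm38) and its mean level was above that of 82.9% of the tested genes.

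Hsd11b1 encodes 11β-hydroxysteroid dehydrogenase type 1, which turns inactive 11-dehydrocorticosterone back into corticosterone inside cells. It stood at 3.34, 1.88 and 2.14 FPKM in KO replicates 1 to 3 and at 4.51, 5.21 and 3.97 FPKM in WT replicates 1 to 3. Every KO value lay under every WT value, so the groups did not overlap. In log2 terms the difference was -0.79 ± 0.22 (95% interval -1.31 to -0.27), which missed the threshold over all genes (limma adjusted p = 0.312). The gene lies on chromosome 1 (193221634 to 193264075, minus strand).

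Tsc22d3 encodes the glucocorticoid-induced leucine zipper protein GILZ, which carries much of the hormone's anti-inflammatory action. Its level was 67.6, 80.9 and 53.9 FPKM in KO replicates 1 to 3 and 12.3, 14.3 and 12.7 FPKM in WT replicates 1 to 3. The lowest KO library lay well above the highest WT library, and the WT values were close together. KO minus WT came to a log2 difference of 2.31 ± 0.16 (95% interval 1.94 to 2.68, limma adjusted p = 0.00265), the fifth smallest p of all tested genes. Tsc22d3 lies on the X chromosome (140539528 to 140600659, minus strand), of which the library that reads as female has a pair; that library had the lowest KO value, and without it the log2 difference was 2.45 (limma adjusted p = 0.0117). Tsc22d3 was the 1 member called in every fit that left out a single library (log2 difference 2.22 to 2.45).

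Fkbp5 encodes FKBP51, an immunophilin that joins the receptor complex and lowers its affinity for hormone, so that its induction closes a feedback loop. It stood at 5.39, 9.10 and 6.12 FPKM in KO replicates 1 to 3 and at 5.22, 4.05 and 4.25 FPKM in WT replicates 1 to 3. The genotypes did not overlap, but KO replicate 1 exceeded WT replicate 1 by little, and KO replicate 2 stood apart from the other 5. Its log2 difference was 0.54 ± 0.17 (95% interval 0.15 to 0.94, limma adjusted p = 0.383), and without KO replicate 2 it was 0.38 (limma adjusted p = 0.444). The gene lies on chromosome 17 (28399094 to 28517527, minus strand).

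Sgk1 encodes serum- and glucocorticoid-regulated kinase 1, which raises sodium transport and promotes cell survival. It stood at 30.0, 28.9 and 20.2 FPKM in KO replicates 1 to 3 and at 10.9, 9.87 and 10.4 FPKM in WT replicates 1 to 3. KO replicate 3 was the lowest KO library and lay well above all 3 WT libraries. Sgk1 had a log2 difference of 1.29 ± 0.16 (95% interval 0.91 to 1.68, limma adjusted p = 0.0291). This is the gene with the strict palindrome shown above; the table gives 1 level for the gene and does not separate its 6 starts. It spans 21882184 to 21999903 on the plus strand of chromosome 10.

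Errfi1 encodes MIG6, an inhibitor of the epidermal growth factor receptor family that glucocorticoids induce. Its level was 28.7, 45.3 and 23.0 FPKM in KO replicates 1 to 3 and 12.7, 11.3 and 10.7 FPKM in WT replicates 1 to 3. KO replicate 2 was far above the other KO libraries, and all 3 lay above every WT library. Errfi1 had a log2 difference of 1.40 ± 0.20 (95% interval 0.92 to 1.88, limma adjusted p = 0.0499), just inside the threshold. Without scaling between libraries it fell outside (limma adjusted p = 0.0784). The gene lies on chromosome 4 (150853919 to 150868892, plus strand).

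Klf9, a Krüppel-like transcription factor gene raised by glucocorticoids in many tissues, had the highest mean level of the 10 genes. It stood at 64.7, 77.5 and 60.6 FPKM in KO replicates 1 to 3 and at 33.1, 34.9 and 35.9 FPKM in WT replicates 1 to 3. Both groups were tight and far apart relative to their spread, although the change was the smallest of the 6 called. The log2 difference was 0.96 ± 0.13 (95% interval 0.66 to 1.26, limma adjusted p = 0.0349). Klf9 lies on chromosome 19 (23141226 to 23168134, plus strand).

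Zbtb16 encodes the zinc finger transcription factor PLZF, strongly induced by glucocorticoids in several human cell types. It stood at 3.31, 3.18 and 3.59 FPKM in KO replicates 1 to 3 and at 4.35, 6.60 and 7.20 FPKM in WT replicates 1 to 3. The KO values were the tighter group and lay under every WT value. The log2 difference was -0.72 ± 0.22 (95% interval -1.24 to -0.21, limma adjusted p = 0.373), opposite in sign to that of the 7 other induced genes. Its place is chromosome 9 (48654297 to 48836222, minus strand).

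Depp1, a target gene of FoxO factors and of steroid hormones that encodes a regulator of autophagy, stood at 81.1, 69.4 and 43.2 FPKM in KO replicates 1 to 3 and at 12.6, 18.1 and 12.3 FPKM in WT replicates 1 to 3. KO replicate 3 was the lowest KO library and still well above the highest WT library. The log2 difference was 2.12 ± 0.26 (95% interval 1.51 to 2.73, limma adjusted p = 0.0267). It is a short gene on chromosome 6 (116650609 to 116652794, plus strand).

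Fam107a encodes an actin-binding protein that stress and glucocorticoids induce in mouse brain. It stood at 7.42, 9.83 and 7.29 FPKM in KO replicates 1 to 3 and at 1.08, 2.05 and 1.76 FPKM in WT replicates 1 to 3. All 3 KO libraries lay far above the WT libraries. The log2 difference was 2.05 ± 0.22 (95% interval 1.54 to 2.56, limma adjusted p = 0.0162), and the ratio of mean FPKM was 5.02. The pseudocount pulls the log2 difference of a gene this low towards 0, and with a pseudocount of 0.1 it was 2.30. Fam107a lies on chromosome 14 (8296274 to 8318023, minus strand).

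**Figure D2:**
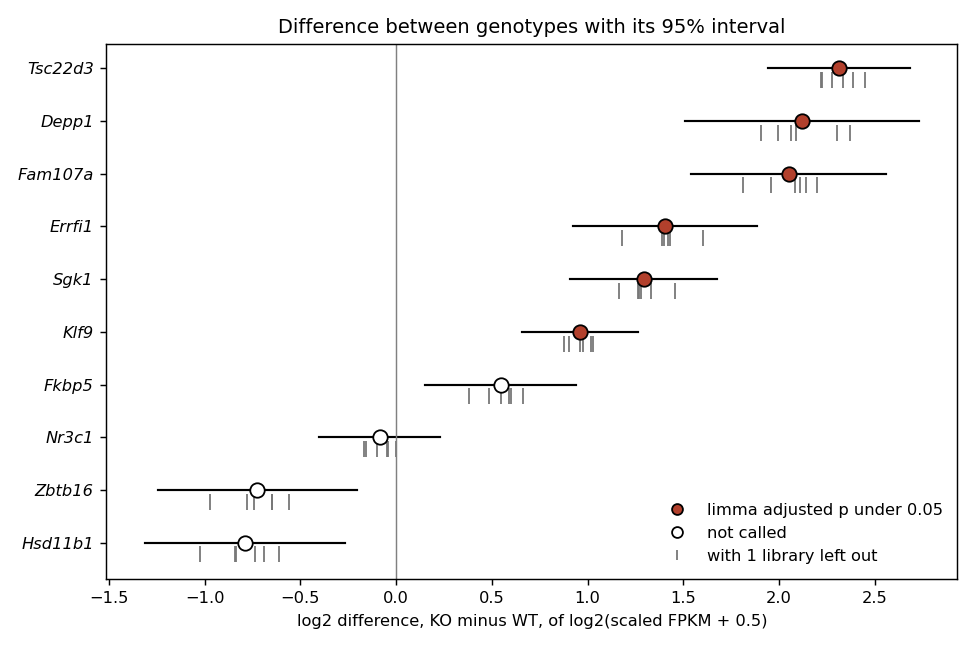
Points are the log2 differences (horizontal axis, KO minus WT) of the 10 genes, ordered from the highest to the lowest, with their 95% intervals as bars; filled points were called at a limma adjusted p under 0.05, and the ticks under each point are the differences with 1 library left out. The 6 called genes run from 0.96 (Klf9) to 2.31 (Tsc22d3), and Zbtb16 and Hsd11b1 lie on the other side of 0.

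The calls of 5 of the 6 genes depended on single libraries, while their differences kept their sign and a size of at least 0.88. Leaving out KO replicate 1 gave a limma adjusted p of 0.0900 for Fam107a, 0.0946 for Depp1, 0.112 for Sgk1, and 0.176 for Klf9 and Errfi1. Without KO replicate 2 it was 0.0988 for Depp1 and Sgk1, 0.0773 for Fam107a, 0.0901 for Klf9 and 0.0545 for Errfi1. Without KO replicate 3, the library that reads as female, Sgk1, Depp1 and Errfi1 kept their calls, and Fam107a (limma adjusted p = 0.0525) and Klf9 (0.0680) missed. Without any 1 of the WT replicates Fam107a kept its call, and the other 4 missed it (limma adjusted p from 0.0618 to 0.203). The number of members called without 1 library therefore ran from 1 to 4. Over all genes such fits called from 12 to 36. With no filter on low values, which raised the genes tested to 25162, Tsc22d3 was the 1 member called (limma adjusted p = 0.0148).

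The 10 genes did not share 1 profile across the libraries. In all 6 called genes KO replicate 3 was the lowest KO library on the scaled values, and KO replicate 2 was the highest in 4 of them; among all tested genes KO replicate 3 was the lowest KO library in 35.4% and KO replicate 2 the highest in 37.6%. Hsd11b1 and Zbtb16 were lowest in KO replicate 2, and Fkbp5 was lowest in KO replicate 1. On the same scale WT replicate 1 was the lowest WT library for Tsc22d3, Depp1, Fam107a, Klf9 and Zbtb16, and the highest WT library for Nr3c1, Fkbp5 and Errfi1. The scaled levels of fibroblast markers summed to 1872, 2383 and 1378 FPKM in KO replicates 1 to 3 and 2066, 1283 and 1177 FPKM in WT replicates 1 to 3. Among KO libraries that is the order of Tsc22d3, Klf9, Fam107a and Errfi1. Among WT libraries the fibroblast sum was highest in WT replicate 1, where Tsc22d3, Klf9 and Fam107a were lowest and Errfi1 was highest. Cardiomyocyte markers summed to 11380, 7750 and 13000 FPKM in KO replicates 1 to 3 and to 9653, 11760 and 13740 FPKM in WT replicates 1 to 3. In whole hearts fewer cells of a type and less RNA per cell cannot be told apart. The part of tissue composition in the spread of these genes was not tested.

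**Figure D3:**
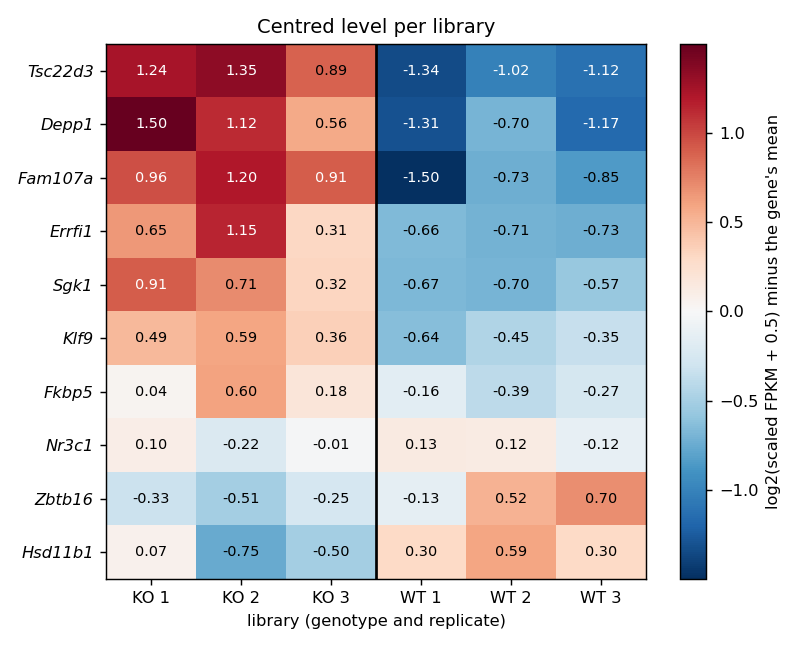
Each cell is a gene's log2(scaled FPKM + 0.5) in 1 library minus that gene's mean over the 6 libraries, with KO libraries on the left of the line and genes ordered by their difference. Tsc22d3 runs from 0.89 to 1.35 in KO libraries and from -1.34 to -1.02 in WT libraries, while Nr3c1 stays between -0.22 and 0.13.

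As a measure of likeness, the root mean square distance between centred log2 profiles over the 6 libraries was taken, across 11448 tested genes with a mean of at least 1 FPKM and a gene name of their own. The profiles nearest to Tsc22d3 were those of the clock repressor genes Per3 (distance 0.18), Nr1d2 (0.19) and Per1 (0.19), followed by Fam107a (0.22) and Depp1 (0.23). Among the other members the distance grew from Errfi1 (0.49), Sgk1 (0.53), Klf9 (0.68) and Fkbp5 (0.91) to Nr3c1 (1.22), Zbtb16 (1.54) and Hsd11b1 (1.58). The profiles nearest to Nr3c1 were those of Psmb3 (0.03), Exoc3 (0.04), Yipf4 (0.04), Tubgcp6 (0.05) and Gypc (0.05), whose log2 differences lay between -0.10 and -0.03. With 3 libraries per genotype such a distance is led by the size of the genotype difference and describes these libraries only.

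Other genes of the pathway were counted against all tested genes, of which 0.375% were called and 8.48% had an unadjusted limma p under 0.05. At those shares a list of 7 to 15 tested genes with 0 called is near the background. Of 14 genes of the receptor complex, all tested, 0 were called and 0 had an unadjusted limma p under 0.05; their median log2 difference was -0.06, and that of all tested genes -0.0042. Hsp90ab1, the constitutive HSP90 gene, was the highest of the list with 331.7, 349.7 and 330.8 FPKM in KO replicates 1 to 3 and 353.3, 354.9 and 350.9 FPKM in WT replicates 1 to 3, and was named after its values were seen. Hsp90aa1, the inducible HSP90 gene, averaged 49.9 ± 4.0 FPKM in KO and 60.9 ± 9.4 FPKM in WT hearts (SD, n = 3 each; log2 difference -0.26 ± 0.14, limma adjusted p = 0.693). The co-chaperone gene Bag1 differed by -0.29 ± 0.17 and the phosphatase gene Ppp5c by -0.18 ± 0.11 (limma adjusted p = 0.730 and 0.757). Fkbp4, whose protein FKBP52 competes with FKBP51 in the complex, averaged 70.5 ± 12.6 FPKM in KO and 68.6 ± 6.1 FPKM in WT hearts (limma adjusted p = 0.9747), well above the FPKM of Fkbp5. Nr3c2, which encodes the mineralocorticoid receptor that binds the same hormone, averaged 2.52 ± 0.90 FPKM in KO and 2.16 ± 0.47 FPKM in WT hearts, well under Nr3c1 (limma adjusted p = 0.918). Fkbp4 and Nr3c2 were likewise named with their values known.

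Of 15 coregulator genes, all tested, 0 were called by limma (all tested genes 0.375%) and 0 had an unadjusted p under 0.05 (all tested genes 8.48%; median log2 difference -0.01). The 3 of smallest p were Nrip1, a corepressor gene, with 0.41 ± 0.18, the coactivator gene Ncoa3 with -0.32 ± 0.16, and the Mediator subunit gene Med14 with 0.26 ± 0.13 (limma adjusted p = 0.595, 0.655 and 0.669).

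Of 14 genes of steroid supply 4 were listed at 0 in all 6 libraries: Cyp11b1, Cyp11b2, Cyp21a1 and Hsd3b1, which encode adrenal steroid-making enzymes. Of the 7 tested, 0 were called by limma and 0 had an unadjusted p under 0.05 (all tested genes 0.375% and 8.48%). Hsd11b2, whose enzyme inactivates corticosterone, was listed at 0 in KO replicates 1 and 2 and WT replicates 2 and 3, at 0.396 FPKM in KO replicate 3 and at 0.0578 FPKM in WT replicate 1, and was named with its values known. Abcb1a, a steroid export pump gene, differed by 0.15 ± 0.14, the cholesterol carrier gene Star by 0.31 ± 0.35 and Fdxr, an electron carrier gene, by -0.16 ± 0.19 (limma adjusted p = 0.840, 0.868 and 0.881). Without KO replicate 2 the log2 difference of Star was -0.08.

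A wider list of 40 other genes that glucocorticoids raise in some tissue was drawn from general knowledge, with earlier results of these hearts known. Of its 35 tested members 4 were called, all raised (among all tested genes 0.375% were called), 31 were not called, and 14 stood higher and 3 lower at an unadjusted limma p under 0.05. In 17 of the 35 the genotypes did not overlap (all tested genes 12.8%), and in 14 of these KO was above (5.29%). The median log2 difference was 0.34. The 4 called genes were Per1, Mt2, Cebpd and Dusp1. Per1 is also counted among the clock genes below, so those lists are not separate.

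**Figure D4:**
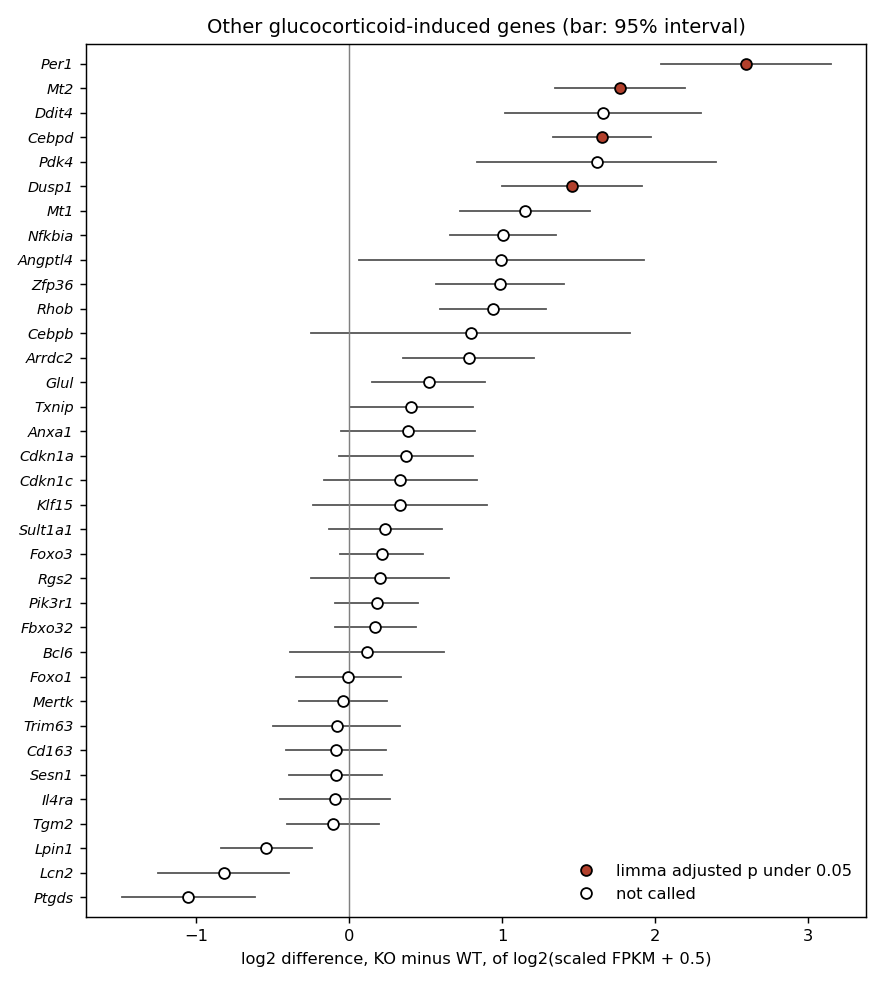
Points are the log2 differences (horizontal axis, KO minus WT) of the 35 tested genes of the wider list with their 95% intervals as bars; filled points were called at a limma adjusted p under 0.05. Per1, Mt2, Cebpd and Dusp1 were called, with differences from 1.46 to 2.60, and Ptgds lies lowest at -1.05.

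Cebpd, a transcription factor gene of the acute phase response, stood at 34.7, 37.7 and 27.7 FPKM in KO replicates 1 to 3 and at 11.3, 9.23 and 10.3 FPKM in WT replicates 1 to 3 (log2 difference 1.66 ± 0.14, limma adjusted p = 0.00510). It kept its call in every fit that left out a single library (limma adjusted p up to 0.0451). Per1, a clock repressor gene with its own receptor element, stood at 24.6, 30.6 and 16.1 FPKM in KO and at 2.79, 3.97 and 3.57 FPKM in WT replicates 1 to 3 (log2 difference 2.60 ± 0.24, limma adjusted p = 0.00889). Leaving out KO replicate 1 ended its call (limma adjusted p = 0.0553). Both genes had their lowest KO value in KO replicate 3 and their highest in KO replicate 2, as Tsc22d3 did.

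Mt2, a metallothionein gene, averaged 79.5 ± 20.3 FPKM in KO and 22.9 ± 4.2 FPKM in WT hearts (SD, n = 3 each; log2 difference 1.77 ± 0.18, limma adjusted p = 0.0147) and missed the threshold without KO replicate 1 (0.0900), WT replicate 2 (0.0773) or WT replicate 3 (0.0569). Dusp1, whose phosphatase switches off stress-activated MAP kinases, averaged 58.4 ± 13.7 FPKM in KO and 20.7 ± 2.1 FPKM in WT hearts (log2 difference 1.46 ± 0.20, limma adjusted p = 0.0349) and kept its call without KO replicate 3 and lost it without any other single library (0.110 to 0.155). Both are also induced by signals other than steroids, such as metals or cell stress.

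Uncalled members of the list lay on both sides. Nfkbia, the gene of an NF-κB inhibitor, averaged 51.8 ± 8.7 FPKM in KO and 25.5 ± 1.5 FPKM in WT hearts (SD, n = 3 each; log2 difference 1.01 ± 0.15) and missed the threshold narrowly (limma adjusted p = 0.0501). Ddit4, which encodes an mTOR inhibitor, differed by 1.66 ± 0.27, Pdk4, which encodes a kinase that restrains glucose oxidation, by 1.62 ± 0.33 and the metallothionein gene Mt1 by 1.15 ± 0.18 (limma adjusted p = 0.0730, 0.148 and 0.0655). Zfp36, whose protein destabilises inflammatory mRNAs, differed by 0.99 ± 0.18 and the small GTPase gene Rhob by 0.94 ± 0.15 (limma adjusted p = 0.102 and 0.0629). In all 6 of these every KO value was above every WT value.

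The ubiquitin ligase gene Trim63, induced by glucocorticoids in skeletal muscle atrophy, averaged 36.6 ± 5.8 FPKM in KO and 39.1 ± 5.4 FPKM in WT hearts (SD, n = 3 each; log2 difference -0.08 ± 0.18, limma adjusted p = 0.940), and Klf15, a receptor target in heart and skeletal muscle, averaged 10.9 ± 1.8 FPKM in KO and 8.82 ± 2.69 FPKM in WT hearts (0.33 ± 0.24, limma adjusted p = 0.790). Ptgds, which encodes prostaglandin D synthase and is raised by glucocorticoids in cardiomyocytes, stood at 45.3, 41.5 and 45.6 FPKM in KO replicates 1 to 3 and at 96.2, 74.3 and 112.0 FPKM in WT replicates 1 to 3 (log2 difference -1.05 ± 0.19, limma adjusted p = 0.0944). Every KO value lay under every WT value, in the opposite direction to Tsc22d3. Lcn2, an acute phase gene, differed by -0.82 ± 0.18 and the lipid phosphatase gene Lpin1 by -0.54 ± 0.13, also without overlap (limma adjusted p = 0.186 and 0.206). The uncalled genes of this list were named after their values were seen.

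Among 20 inflammatory genes that glucocorticoids repress, 15 were tested, 0 were called by limma (all tested genes 0.375%), 3 had an unadjusted p under 0.05 (all tested genes 8.48%), and 9 stood lower and 6 higher (median log2 difference -0.16). Ccl7, a monocyte attractant gene, averaged 3.71 ± 0.61 FPKM in KO and 8.67 ± 2.40 FPKM in WT hearts (SD, n = 3 each; log2 difference -1.09 ± 0.18, limma adjusted p = 0.0712). The matrix protease gene Mmp9 differed by -0.78 ± 0.23 and the prostaglandin synthase gene Ptgs2, higher in KO, by 0.67 ± 0.26 (limma adjusted p = 0.336 and 0.522). Mmp9 is also among the neutrophil markers counted next, so those lists are not separate. The scaled levels of neutrophil markers summed to 20.9 to 36.7 FPKM in KO and 52.4 to 71.3 FPKM in WT hearts, those of T and natural killer cells to 2.69 to 3.78 and 5.42 to 8.35 FPKM, and those of mast cells to 5.003 to 8.19 and 9.35 to 13.2 FPKM, without overlap (exact permutation test on log2 sums, two-sided p = 0.1 each, the smallest that 3 against 3 allows). Of their tested markers 7 of 7, 3 of 3 and 4 of 5 stood lower in KO. S100a9 led the neutrophil sum, and S100a8, S100a9, Mmp8 and Mmp9 did not overlap. Retnlg, Csf3r and Cxcr2 overlapped, and Ly6g, which did not pass the filter, averaged 0.144 FPKM in KO and 0.138 FPKM in WT hearts. Trac led the T and natural killer cell sum and was lower in every KO library. In that list Klrb1c, untested, was higher in every KO library (mean 0.168 against 0.0851 FPKM), and Nkg7 and Ncr1 overlapped. These markers were named with their values known. B and plasma cell markers, 5 of 5 lower, summed to 33.6 to 58.5 FPKM in KO and 51.0 to 367.6 FPKM in WT hearts and overlapped (exact permutation p = 0.2). Of the tissue's main cells, 10 of 10 cardiomyocyte markers stood lower and 8 of 9 fibroblast markers higher in KO, and both sums overlapped (exact permutation p = 0.6 and 0.4). The sum of a skeletal muscle list also did not overlap, at 530.2 to 602.6 FPKM in KO and 646.4 to 908.2 FPKM in WT hearts (exact permutation p = 0.1), but it was carried by Ckm and Acta1, which heart muscle also expresses, and each of Tnnt3, Mylpf and Pvalb overlapped between the genotypes. Tnnt3, Mylpf and Pvalb were highest in WT replicate 1 (10.9, 8.62 and 4.95 FPKM) and next highest in KO replicate 1 (2.95, 2.43 and 2.04 FPKM). The part of these cells in the levels above was not tested. Macrophage marker sums overlapped, at 686.8 to 872.2 FPKM in KO and 746.9 to 1159 FPKM in WT hearts (exact permutation p = 0.4).

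Of 13 close family members 9 were tested and 0 were called by limma (all tested genes 0.375%), with 1, Klf13, at an unadjusted p under 0.05 (all tested genes 8.48%). Tsc22d2, a relative of Tsc22d3, differed by 0.21 ± 0.13, Fam107b by 0.24 ± 0.16 and Klf13, a relative of Klf9, by 0.35 ± 0.14 (limma adjusted p = 0.764, 0.762 and 0.531). Sgk2 and Klf14 were listed at 0 in all 6 libraries. Around the SGK1 kinase, 9 of 14 relatives, regulators and substrates were tested and 0 were called by limma, with 0 at an unadjusted p under 0.05, against the same shares of all tested genes. The 3 of smallest p were Foxo3, a transcription factor gene (0.21 ± 0.12), Pdpk1, the gene of the kinase that activates SGK1 (-0.23 ± 0.15), and Atp1b1, a sodium pump subunit gene (0.20 ± 0.16), with limma adjusted p of 0.707, 0.766 and 0.817. The epithelial sodium channel subunit genes Scnn1b and Scnn1g were listed at 0 in all 6 libraries, and Scnn1a did not pass the filter. Of 12 receptors and ligands of the family that MIG6 restrains, 7 were tested and 0 called by limma, with 0 at an unadjusted p under 0.05, against those shares; the ligand genes Nrg1 and Hbegf differed by -0.42 ± 0.21 and 0.21 ± 0.11 and the receptor gene Erbb4 by 0.39 ± 0.23 (limma adjusted p = 0.662, 0.685 and 0.725).

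Of 19 tested clock genes 8 rose by limma (Per1, Per2, Per3, Nr1d2, Dbp, Tef, Ciart and Bhlhe40; 0.273% of all tested genes rose), 2 fell (Arntl and Npas2; 0.102% of all tested genes fell) and 9 were not called. Of the 19 genes, 18 had an unadjusted limma p under 0.05 (8.48% of all tested genes). In 18 the genotypes did not overlap (12.8% of all tested genes). Dbp, a clock output gene, stood at 35.3 ± 6.1 FPKM in KO and 1.98 ± 0.30 FPKM in WT hearts (SD, n = 3 each). Corticosterone and the RNAs of Per1 and Klf9 are known to cycle over the day. When in the day each heart was taken is not given, so genotype and hour of harvest cannot be told apart for the genes described here.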

How the data were processed

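Hearts of 3 KO and 3 WT mice were sequenced from TruSeq RNA libraries, per the labels' protocols. The deposited values are FPKM per gene, read as such from the values, since the table is titled as counts but 37.2% to 40.4% of a library's values are not whole, and low values times transcript length fall on steps. Depth was estimated from what 1 fragment is worth, the commonest value of FPKM times length among genes with a single transcript. The submitters' processing notes name Bowtie 0.12.2, mm8 and mm9; the sources used here do not give the quantifier, annotation or use of strand. Symbols were matched by Ensembl identifier (52403 of 52550 rows) and gene coordinates come from GENCODE M21 (GRCm38).

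The filter asked for 0.5 FPKM or more in 3 libraries, which 14656 genes passed. FPKM was divided by trimmed-mean scaling factors (0.949 to 1.07; trims 0.3 and 0.05), and log2(scaled FPKM + 0.5) was fitted with limma 3.58.1 in R 4.3.3 (genotype only, mean-variance trend, two-sided, Benjamini-Hochberg). This scale understates changes of low genes. The fit was tested on simulated data. With nothing said of separate litters or sessions, p-values cover only sample-to-sample spread, which may be technical. The main fit did not pair the samples by replicate number.

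The members, lists and tests were chosen with earlier results of these data known. Named were the 10 members, each list's called genes and its 3 of smallest p (of the clock list, values for Dbp only), and 5 nearest profiles for Tsc22d3 and Nr3c1. Outside that rule, genes said in the text to be named with their values seen or known were added. Protein sequences were not used here. Alternatives were other scalings, filters, pseudocounts, a robust fit, array weights, a replicate block, removal of the 8 highest rows and leaving out each library.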

Additional observations from a re-analysis of the deposited data

How the results depend on the processing

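The 6 members called kept a positive difference in every fit run, and Hsd11b1 and Zbtb16 a negative one. Over all genes 55 were called, 20 with no filter (25162 genes tested), 131 with array weights and 12 to 36 with 1 library left out. Of the members 6 were called, 1 with no filter and 1 to 4 with 1 library left out. Of the genes of the other lists 13 were called, 23 with array weights and 8 to 15 with 1 library left out. Errfi1, nearest to the threshold, also missed it without scaling (limma adjusted p = 0.0784) and with pseudocounts of 0.1 (0.0541) and 1 (0.0511). With 1 library left out the log2 difference ran from -0.17 to 0.0010 for Nr3c1 and from -0.082 to 0.61 for Star, and the sign turned for both without KO replicate 2. Marker lists without overlap between the genotypes numbered 4 of 13, and 5 to 7 with 1 library left out. Groups of fewer libraries miss each other more easily, so the higher counts do not show firmer differences. No scaling moved the median of all genes by over 0.1.

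With the replicate number as a block, 3 of the 10 members (Tsc22d3, Depp1 and Fam107a) and 42 genes were called. Deviations of same-numbered libraries from their group means correlated across genes at 0.0076, -0.036 and 0.18. Those of differently numbered libraries correlated at -0.20 to 0.19. So few pairs cannot tell whether libraries of the same number share more than that number. The cause of these changes was not tested. Depth limits genes near 0 FPKM, such as Hsd11b2.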

Other observations

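H6pd encodes the enzyme that supplies the cofactor of the Hsd11b1 enzyme. It stood at 3.02, 15.2 and 9.73 FPKM in KO replicates 1 to 3 and at 3.84, 11.1 and 9.30 FPKM in WT replicates 1 to 3, so the replicate 1 library was the lowest in both genotypes (log2 difference 0.07 ± 0.58, limma adjusted p = 0.989). The gene was picked with its values in view.

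Of 9 adipocyte markers 5 were tested and 0 called by limma, 4 of the 5 stood lower in KO, and Ucp1 was at 0 in all 6 libraries. The scaled levels summed to 160 to 242.7 FPKM in KO and 126.7 to 184.4 FPKM in WT hearts (exact permutation p = 0.2), but nearly all of that sum was Fabp4, which endothelium also expresses, at 218.7, 157.9 and 188.7 FPKM in KO replicates 1 to 3 and 114.0, 132.6 and 120.4 FPKM in WT replicates 1 to 3, so it does not describe fat cells. Adipoq, the defining fat cell marker, stood at 0.411, 0.976 and 1.79 FPKM in KO replicates 1 to 3 and at 2.00, 3.03 and 0.140 FPKM in WT replicates 1 to 3. Fat cells also express Hsd11b1; the part of fat tissue in its level was not tested.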
